A study of Homo sapiens with 6 samples.

Results

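The interleukin-6 (IL6) family of cytokines and the receptors that work through gp130 were followed in clonal 143B cells with and without deletion of CNTNAP4. The genes were taken by symbol, with earlier results of these data known, as 5 ligands (IL6, IL11, LIF, CLCF1 and CTF1) and 5 receptor chains (IL6ST, which encodes gp130, and IL6R, IL11RA, LIFR and OSMR). They make up 10 of the 54308 genes in the deposited table, and all 10 are listed there. A total of 9 had at least 2 values in each group and were tested, while CTF1 was not. Deletion of CNTNAP4 was accompanied by higher signals of the ligands LIF (13.3-fold) and IL11 (1.97-fold) and of the receptor chains IL6ST (1.95-fold) and OSMR (1.72-fold). The other 5 tested members did not pass the test.

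143B is an established human osteosarcoma (OS) cell line, and CNTNAP4 encodes a contactin-associated cell surface protein that binds the secreted factor NELL-1. The bulk RNA-Seq compared 3 vector control (VC) libraries, from 143B cells that received a vector plasmid and are labelled as the genotype control, with 3 CNTNAP4 KO libraries, from 143B cells that received a CRISPR/Cas9 KO plasmid. The labels give 48 h of transfection, and the study's methods describe a longer incubation, sorting of single RFP-positive cells and expansion of KO colonies into clones. Which clone gave the RNA is not given in the sources used here, so an effect of the deletion cannot be told apart from a trait of 1 clone. Both groups were grown in serum-containing medium with no cytokine named as added. The RNA samples of a group are described as independent preparations of clonal cells, so p-values measure the spread between these preparations. Values are deposited log2 signals, in which a difference of 1 is a 2-fold difference. Where the table gives no value for a gene in a library the cell is empty, and the depth of the libraries is unknown.

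Cytokines of the IL6 family are small secreted proteins that signal through gp130, a receptor chain shared by almost the whole family. IL6 and IL11 first bind their own receptor chain, IL6R or IL11RA, and then bring gp130 molecules together, whereas LIF and the ligands related to it pair gp130 with LIFR, and oncostatin M pairs gp130 with OSMR or LIFR. Receptor-bound JAK kinases then activate STAT3 and, through the phosphatase SHP2, the Ras-MAPK cascade. In bone, these cytokines are known to act on osteoblasts and osteoclasts.

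The ligands have short-lived mRNAs, and AU-rich elements in the 3′ UTR are a known mark of such transcripts. The heptamer TATTTAT was therefore searched in the 3′ UTR of 1 coding transcript per gene (GENCODE 29, GRCh38, transcript strand), and 30 bases with the most copies are shown for the ligands that hold it and for OSMR, with each copy in capitals.
IL6, chr7:22731925-22731954, plus strand: aagaaaTATTTATattgTATTTATataatg
IL11, chr19:55365943-55365972, minus strand: ccagatctTATTTATTTATTTATttcagta
LIF, chr22:30242563-30242592, minus strand: ttcTATTTATtatgatatccTATTTATatt
CLCF1, chr11:67364230-67364259, minus strand: aaTATTTATTTATttggagatgtTATTTAT
OSMR, chr5:38935444-38935473, plus strand: tgtcagcattTATTTATTTATgtacctttg

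Counting overlapping copies, the heptamer occurred 7 times in the 1618 bases of the IL11 3′ UTR, 5 times in the 3204 bases of LIF, 4 times in the 968 bases of CLCF1 and 3 times in the 429 bases of IL6. Of all 3′ UTRs within 1.25-fold of the same length, 36.5% held at least 1 copy for IL11, 57.8% for LIF, 24.9% for CLCF1 and 12.5% for IL6. The 3′ UTR of CTF1 held none in 1021 bases. Among the receptors, OSMR held 3 copies in 2197 bases, IL6ST and LIFR 1 copy each in 5987 and 6632 bases, and IL6R and IL11RA none. Holding the heptamer did not separate the members that passed the test from those that did not: IL11 and LIF hold it, but so do IL6 and CLCF1. The match is a description of letters and no measurement of RNA stability.

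In promoters (GRCh38.p14, the 250 bases before a start listed in RefSeq), 7 of the 10 members had an entry. Such a start can lie inside the GENCODE gene span given below. Only the IL11 window lay wholly outside its gene's span. Motifs of 5 factor families were searched on both strands: AP-1 (TGANTCA), NF-kB (its consensus decamer), C/EBP (TTNNGNAA), the CRE core (TGACG) and STAT (TTCNNNGAA). They occur in 6.57%, 1.4%, 33.2%, 21.2% and 6.57% of all 35116 promoters. The IL11 promoter held the AP-1 motif, in capitals below, and none of the other 4.
IL11, chr19:55370464-55370713, minus strand: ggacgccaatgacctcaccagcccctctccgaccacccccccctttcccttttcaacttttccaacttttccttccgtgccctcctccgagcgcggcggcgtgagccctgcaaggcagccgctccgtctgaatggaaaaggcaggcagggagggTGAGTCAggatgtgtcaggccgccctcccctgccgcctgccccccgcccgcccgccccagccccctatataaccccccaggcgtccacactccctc

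The IL6 promoter held C/EBP, CRE core and NF-kB matches, and the OSMR promoter held a C/EBP match, shown in 30-base stretches with the matches in capitals.
IL6, CRE core, chr7:22726973-22727002, plus strand: cgctagcctcaaTGACGacctaagctgcac
IL6, CRE core and C/EBP, chr7:22727031-22727060, plus strand: taaaggaCGTCAcaTTGCACAAtcttaata
IL6, NF-kB, chr7:22727117-22727146, plus strand: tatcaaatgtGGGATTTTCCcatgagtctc
OSMR, C/EBP, chr5:38845928-38845957, plus strand: aagacgggaaaTTGCAAAAgacctcacccc
The IL6R window held a C/EBP match, 2 of the 3 LIFR windows held C/EBP and STAT matches, and the IL6ST window and both IL11RA windows held none of the 5 motifs. The members that passed the test and have an entry thus shared no motif among those searched. LIF, CLCF1 and CTF1 had no entry. No match says only that these letters are not in the window.

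Of the 9 tested members, 4 passed limma's test at an adjusted p under 0.05, all of them higher in KO cells. The background for that count is wide, since 32.9% of all 19306 genes tested passed, 13.1% with a higher signal in KO cells and 19.8% with a lower one. After each library was centred on its median over the tested genes, the split over all genes was 3141 higher and 3066 lower in place of 2526 and 3828. The median log2 fold change of the 9 members was 0.54, beside -0.13 over all genes. Centring, a further quantile normalization or the addition of 1 to the linear signal moved the median of all genes by about 0.1, to between -0.05 and -0.02. The groups did not overlap for 6 of the 9 tested members, beside 59.3% of the 17698 genes with 6 values, and for 5 of the 9 the KO libraries lay above the VC libraries, beside 22.6%. LIF alone also reached a 2-fold difference, as did 9.53% of all genes tested. The plot of the members' signals by library shows these values.

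**Figure D1:**
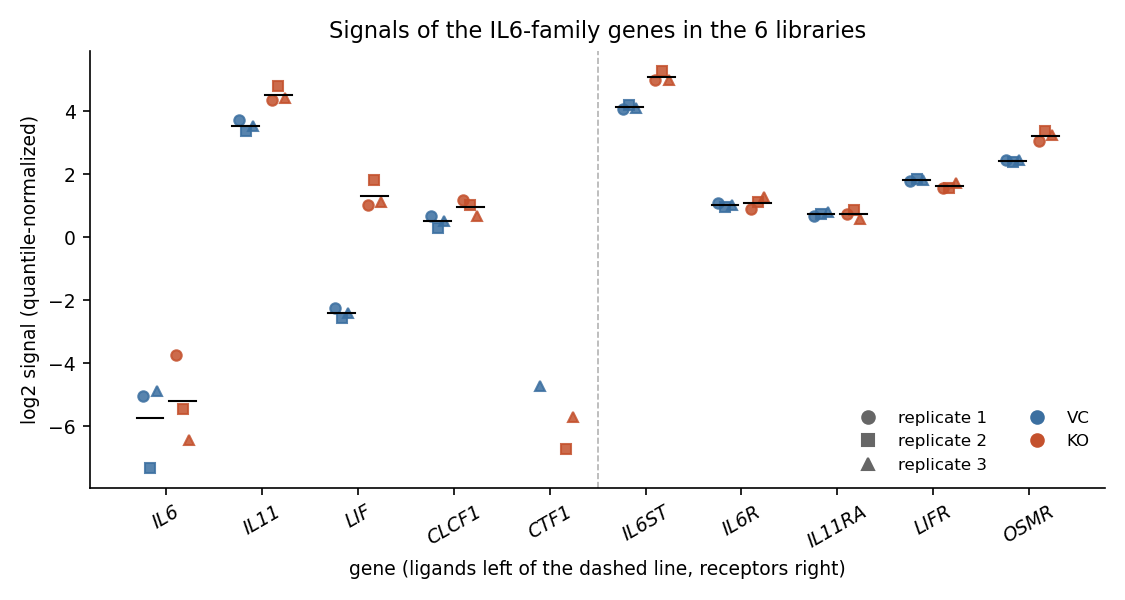
Deposited log2 signal of each family member in the 3 VC and 3 CNTNAP4 KO libraries, 1 point per library, with ligands and receptors apart. The KO points of LIF, IL11, IL6ST, OSMR and, by a narrow margin, CLCF1 all lie above the VC points. Those of LIFR lie below the VC points, and those of IL6, IL6R and IL11RA overlap them.

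LIF (ENSG00000128342.4, chr22:30240447-30246851, minus strand), the leukemia inhibitory factor, had the largest difference in the family. VC replicates 1 to 3 had log2 signals of -2.26, -2.57 and -2.41, and KO replicates 1 to 3 had 1.01, 1.81 and 1.13. The lowest KO library lay above the highest VC library by more than the spread within either group. The log2 fold change was 3.73 (SE 0.24, 95% interval 3.14 to 4.33), a 13.3-fold higher linear signal with an interval of 8.81 to 20.1, and an adjusted p of 0.00553 by limma. Over all genes, the log2 fold change that 95% of genes stayed below was 1.06. The LIF signal in VC cells is low, and with 1 added to the linear signal before taking logs the log2 fold change was 1.56 with an adjusted p of 0.00408. Leaving out each library in turn kept it between 3.49 and 3.89, with adjusted p-values of 0.00422 to 0.0316.

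IL11 (ENSG00000095752.6, chr19:55364389-55370463, minus strand), a cytokine known for its action on bone-forming and stromal cells, had the highest signal of the ligands. VC cells gave log2 signals of 3.72, 3.38 and 3.52 (replicates 1 to 3, an order kept in the following), and KO cells gave 4.36, 4.80 and 4.40. The groups did not overlap, and the lowest KO library exceeded the highest VC library. On the log2 scale the difference was 0.98 (SE 0.16, 95% interval 0.58 to 1.38), or 1.97-fold with an interval of 1.49 to 2.60, and the adjusted p was 0.0148. Without VC replicate 3 the adjusted p was 0.0576 at a log2 fold change of 0.96, and it was under 0.05 when any of the other 5 libraries was left out.

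CLCF1 (ENSG00000175505.10, chr11:67364168-67374177, minus strand) encodes cardiotrophin-like cytokine factor 1, which acts through the CNTF receptor. Its log2 signal was 0.67, 0.30 and 0.52 in VC cells and 1.18, 1.005 and 0.68 in KO cells. The KO libraries lay above the VC libraries by a narrow margin, with KO replicate 3 next to VC replicate 1. The log2 fold change of 0.46 (95% interval 0.034 to 0.88) did not pass the test, with an adjusted p of 0.087. It was under 0.05 after median centring (0.0439) and after a further quantile normalization (0.0366).

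IL6 (ENSG00000136244.11, chr7:22725884-22732002, plus strand), the founding cytokine of the family, had the lowest mean signal among the tested members in both groups. In VC cells the log2 signal was -5.06, -7.32 and -4.87, and in KO cells it was -3.73, -5.47 and -6.44. The groups overlapped, and the libraries within each group spanned more than 2 log2 units. The log2 fold change was 0.54 with a 95% interval of -1.90 to 2.97 and an adjusted p of 0.692, and its sign turned when VC replicate 2 (-0.25) or KO replicate 1 (-0.21) was left out. A difference in IL6 was therefore not detectable at these signals. CTF1 (ENSG00000150281.6, chr16:30896607-30903560, plus strand), which encodes cardiotrophin 1, had a value in VC replicate 3 (-4.72), KO replicate 2 (-6.71) and KO replicate 3 (-5.71) and none elsewhere.

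IL6ST (ENSG00000134352.19, chr5:55935095-55994993, minus strand), the gene of the shared signalling chain gp130, had the highest signal of the family. It was measured at log2 signals of 4.07, 4.20 and 4.09 in VC cells and 4.99, 5.29 and 4.97 in KO cells. The groups were far apart beside their spread, with SDs of 0.071 in VC and 0.18 in KO (n = 3 each). The log2 fold change was 0.96 (SE 0.11, 95% interval 0.68 to 1.25), or 1.95-fold with an interval of 1.61 to 2.37, and the adjusted p was 0.00951. With each library left out it ranged from 0.86 to 1.02, with adjusted p-values of 0.00757 to 0.0444.

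OSMR (ENSG00000145623.12, chr5:38845858-38945596, plus strand) encodes the chain that pairs with gp130 for oncostatin M and with IL31RA for interleukin-31. Its log2 signal was 2.45, 2.39 and 2.46 in VC cells and 3.04, 3.38 and 3.23 in KO cells. The groups did not overlap. OSMR had a log2 fold change of 0.78 (SE 0.10, 95% interval 0.52 to 1.05), or 1.72-fold with an interval of 1.44 to 2.07, and the adjusted p was 0.0106. Leaving out single libraries kept it between 0.70 and 0.87, with adjusted p-values of 0.00545 to 0.0466. OSMR overlaps RICTOR, a subunit of the mTORC2 kinase complex on the opposite strand, whose log2 fold change was 0.53 (adjusted p 0.0105). Whether reads were counted by strand is not given in the sources used here, so reads of overlapping genes may be shared between them.

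LIFR (ENSG00000113594.9, chr5:38474963-38608354, minus strand), the LIF-binding chain, was the only one of the 5 chosen receptor chains with all KO libraries below all VC libraries. Its log2 signal was 1.79, 1.84 and 1.81 in VC cells and 1.57, 1.57 and 1.72 in KO cells. The difference was small, with a log2 fold change of -0.19 (95% interval -0.38 to -0.0054), and did not pass the test (adjusted p 0.0977). It was under 0.05 among genes in the upper 50% of mean signal (0.0402) and with 1 added to the linear signal (0.033). In those fits 5702 of 9653 and 7773 of 19306 genes passed over all genes. LIFR differed by -0.106 after median centring (adjusted p 0.37) and by -0.125 after a further quantile normalization (adjusted p 0.276). The median over all genes was -0.13 in the main fit. LIFR and OSMR lie 237.5 kb apart on chromosome 5. The antisense gene LIFR-AS1, which overlaps LIFR, differed by -0.40 on the log2 scale (adjusted p 0.0377), but its adjusted p was under 0.05 in just 1 of the 6 fits that left out a library and reached 0.115 without VC replicate 1.

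IL6R (ENSG00000160712.12, chr1:154405193-154469450, plus strand) and IL11RA (ENSG00000137070.17, chr9:34650702-34661892, plus strand) bind IL6 and IL11 before gp130 joins. The log2 signal of IL6R was 1.10, 0.96 and 1.03 in VC cells and 0.90, 1.12 and 1.26 in KO cells. That of IL11RA was 0.67, 0.73 and 0.79 in VC cells and 0.73, 0.87 and 0.57 in KO cells. The groups overlapped for both genes, and neither passed the test. The 95% interval of the log2 fold change was -0.22 to 0.36 for IL6R (adjusted p 0.669) and -0.26 to 0.24 for IL11RA (adjusted p 0.944), so changes as large as those of IL6ST and OSMR lay outside them. The signs of these small differences turned in some alternative fits, to -0.016 for IL6R without KO replicate 3 and to 0.078 for IL11RA after median centring.

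**Figure D2:**
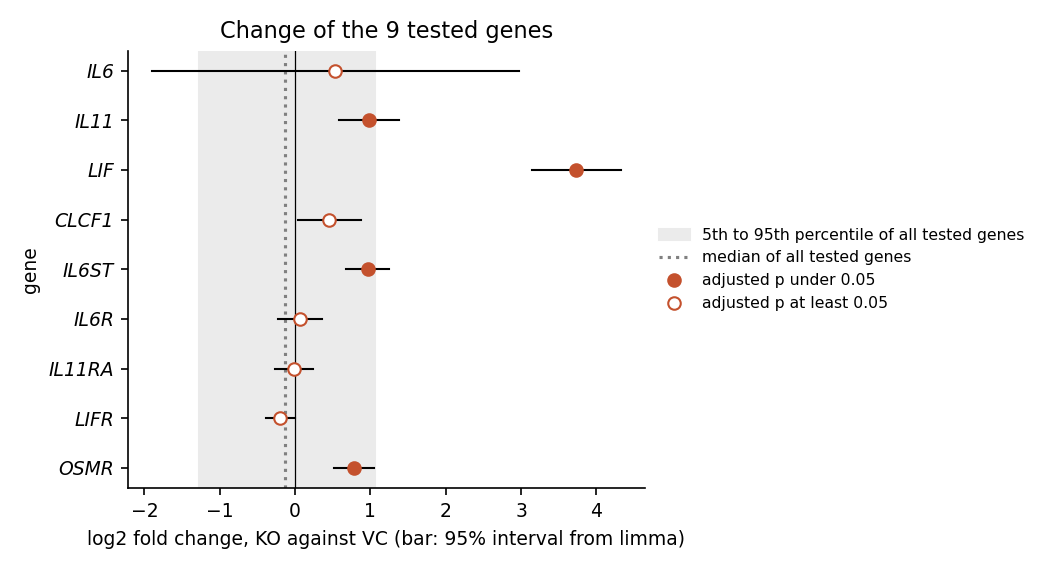
Log2 fold change (KO minus VC) of the 9 tested family members with 95% intervals from limma, 3 libraries per group. The intervals of LIF, IL11, IL6ST and OSMR lie well above 0, that of CLCF1 is just above and that of LIFR just below 0, and those of IL6, IL6R and IL11RA include 0.

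**Figure D3:**
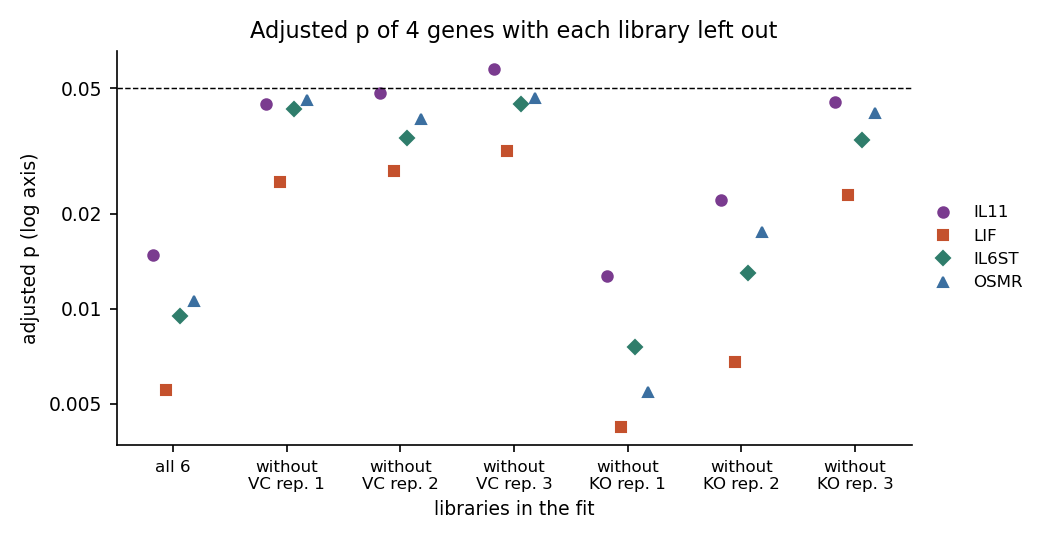
Adjusted p from limma (log axis) of LIF, IL11, IL6ST and OSMR in the fit of all 6 libraries and in the 6 fits that leave out 1 library each. A dashed line marks 0.05. With a library left out, LIF runs from 0.00422 to 0.0316 and IL6ST from 0.00757 to 0.0444. IL11 reaches 0.0576 without VC replicate 3.

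Levels of different genes can be set side by side only if the signals are scaled to gene length, which the deposited table does not state. Among 1264 genes with a value in 1 library alone and a length in GENCODE, the log2 signal fell with exonic length by a slope of -0.85 per doubling (Pearson r of -0.78 across genes, which are not independent replicates). A signal divided by length would fall in this way among genes so rarely measured, and the slope is no measure of a length bias in the members. On the deposited scale, the order of the mean log2 signals in VC cells was IL6ST (4.12 ± 0.071, SD, n = 3), IL11 (3.54 ± 0.17), OSMR (2.43 ± 0.034), LIFR (1.81 ± 0.026), IL6R (1.03 ± 0.070), IL11RA (0.73 ± 0.058), CLCF1 (0.50 ± 0.19), LIF (-2.41 ± 0.16) and IL6 (-5.75 ± 1.36). No neighbours in this order overlapped in their libraries, although IL11RA and CLCF1 nearly touched at 0.67. In KO cells IL6ST (5.08 ± 0.18), IL11 (4.52 ± 0.24) and OSMR (3.22 ± 0.17) kept the first places. LIF (1.32 ± 0.43) moved into the middle of the order, where LIFR (1.62 ± 0.087), LIF, IL6R (1.10 ± 0.18), CLCF1 (0.95 ± 0.25) and IL11RA (0.72 ± 0.15) each overlapped their neighbours.

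Within a library, the LIF signal minus that of LIFR was -4.05, -4.42 and -4.22 on the log2 scale in VC cells, and -0.56, 0.24 and -0.59 in KO cells. On the deposited scale, the LIF RNA signal was thus near that of LIFR in KO cells and far below it in VC cells. Whether that scale allows levels of different genes to be compared is not stated. IL11 was above IL11RA in every library, by 2.65 to 3.05 in VC cells and 3.63 to 3.92 in KO cells. The 2 neighbouring receptor genes also moved apart, with OSMR above LIFR by 0.55 to 0.66 in VC cells and 1.47 to 1.81 in KO cells. These differences are made from the members' own signals and are given as a description, without a test.

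The libraries were compared over all genes as a check. VC libraries correlated at 0.9901 to 0.9916 with each other, KO libraries at 0.9852 to 0.9898, and KO with VC libraries at 0.9636 to 0.9809. KO replicate 2 lay farthest from the VC mean (mean absolute difference of 0.674, beside 0.426 and 0.552 for the other KO libraries), and it also had the highest signal of LIF, IL11, IL6ST and OSMR. Without it, all 4 genes still passed the test. The deleted gene CNTNAP4 had a value in VC replicate 3 only (-7.18), so its signal gives no fold change and cannot check the labels. Of the 8 osteosarcoma and mesenchymal markers, all had a value in every library, with a summed linear signal of 1510 to 1680 in VC and 1810 to 2230 in KO cells, 4 higher and 1 lower, although COL1A2 was low in both. The 7 leukocyte markers summed to 0.249 to 0.269 in VC and 0.181 to 0.226 in KO cells, near 0 beside them, with 4 measured in all libraries and CSF1R higher in KO cells (log2 fold change 2.16, adjusted p 0.00571). The 5 endothelial markers summed to 0.0672 to 0.117 in VC and 0.0894 to 0.163 in KO cells, and none passed the test. The part that the higher mesenchymal sum plays in the results was not tested. The 5 epithelial markers summed to 577 to 640 in VC and 553 to 609 in KO cells, mostly from the keratins KRT8 and KRT18, with CDH1 in 1 library only. In KO cells KRT8 was higher (0.59 on the log2 scale, adjusted p 0.0135) and EPCAM lower (-0.67, adjusted p 0.0157), and their part in the results was not tested.

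Among 9 further ligands and receptors of the family, 6 could be tested, and 2 were higher and 1 was lower in KO cells. Over all genes, 13.1% were higher and 19.8% lower. The median log2 fold change of the 6 was -0.37, beside -0.13 over all genes. EBI3, a subunit of interleukin-27, had log2 signals of -1.44, -1.95 and -1.40 in VC cells and -0.28, -0.058 and -0.17 in KO cells. The groups did not overlap, and the log2 fold change was 1.43 (SE 0.17, adjusted p 0.00963). CNTFR, the binding chain of the CNTF receptor used by CLCF1, went from -2.06, -3.01 and -2.97 to -4.20, -4.35 and -4.51, a log2 fold change of -1.68 (SE 0.28, adjusted p 0.0157) that had an adjusted p of 0.0551 without KO replicate 3. IL27RA differed by 0.31 on the log2 scale (adjusted p 0.0313), with an adjusted p of 0.104 without VC replicate 3. Oncostatin M (OSM), which lies 16.0 kb from LIF and is the ligand of OSMR, had a value in VC replicate 2 only (-6.05), and IL27 and IL31 had none. The receptor chain OSMR was therefore measured at a higher signal in cells where its ligand's own transcript had almost no signal.

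Of the 12 JAK, STAT and SHP2 pathway genes downstream of gp130, 1 was higher and 4 were lower, with a median of -0.05, beside 13.1% of all genes higher and 19.8% lower. The main kinases and STAT3 did not pass the test, with log2 fold changes of -0.05 for JAK1 (adjusted p 0.596), 0.15 for JAK2 (adjusted p 0.302) and -0.05 for STAT3 (adjusted p 0.668). STAT3 had log2 signals of 3.86, 3.79 and 3.87 in VC cells and 3.92, 3.68 and 3.77 in KO cells, and a 95% interval of -0.28 to 0.17 for the difference. STAT5A was the higher gene, at a low signal (-3.23 ± 0.20 in VC and -1.58 ± 0.39 in KO, n = 3 each), with a log2 fold change of 1.65 (SE 0.23, adjusted p 0.0113). The 4 lower genes were the exchange factor SOS1 (-0.98, adjusted p 0.0307), the scaffold GAB1 (-0.71, adjusted p 0.0317) and, named after their values were seen, PTPN11, the gene of SHP2 (-0.47, adjusted p 0.0175), and the adaptor GRB2 (-0.31, adjusted p 0.0442). The adaptor SHC1 of the same list did not pass (0.084, adjusted p 0.508). The calls of these 4 were lost without VC replicate 1, 2 or 3 or KO replicate 3, where the count of the whole list was 1. Over all genes, 1403, 2450, 1223 and 2018 passed in those fits, in that order, in place of 6354. STAT5A had an adjusted p under 0.05 in all 6 fits that left out a library.

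Of 15 feedback inhibitors, 2 were higher and 2 lower, beside 13.1% higher and 19.8% lower over all genes. Their median was -0.09, near the -0.13 over all genes. SOCS3, the inhibitor best known for binding gp130, had log2 signals of 2.77, 2.60 and 2.72 in VC cells and 2.90, 2.38 and 2.52 in KO cells. The groups overlapped, and the log2 fold change of -0.10 had a 95% interval of -0.48 to 0.28 (adjusted p 0.64). SOCS2, a suppressor of growth hormone signalling, differed by 0.64 on the log2 scale (adjusted p 0.0158), PIAS3, an inhibitor of STAT3, 0.42 (adjusted p 0.0278), and the phosphatase PTPN1 -0.34 (adjusted p 0.024). None of the list passed without VC replicate 1 or VC replicate 3, 1 gene passed without VC replicate 2 or KO replicate 3, and 2 passed without KO replicate 2. Over all genes, 1403, 1223, 2450, 2018 and 4393 passed in those fits, in that order, in place of 6354.

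Of 25 genes known as STAT3 targets, 17 could be tested, and 9 of these were higher and none lower in KO cells, beside 13.1% higher and 19.8% lower over all genes. Over the 17 tested genes the median log2 difference was 0.58, beside -0.13 over all genes. ICAM1, an adhesion molecule, had log2 signals of 1.91, 1.89 and 2.03 in VC cells and 4.41, 5.22 and 4.70 in KO cells. The groups lay far apart, with a log2 fold change of 2.84 (SE 0.22, adjusted p 0.00597). SERPINA3, an acute-phase protease inhibitor, had no value in VC replicate 1 and low signals of -6.36 and -5.50 in the other VC libraries, against -2.42, -2.002 and -3.05 in KO cells, and its log2 fold change of 3.44 (SE 0.43, adjusted p 0.0132) was fitted without the missing library. The transcription factor gene CEBPB differed by 1.71 on the log2 scale (SE 0.20, adjusted p 0.00912). Many genes of this list also respond to NF-kB and stress signals, as general background. The 8 untested genes are acute-phase genes known from liver (FGA, FGB, FGG, LBP, CRP, SAA1, SAA2 and HP). Between 6 and 9 genes passed when 1 library was left out, beside 1223 to 8669 over all genes.

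**Figure D4:**
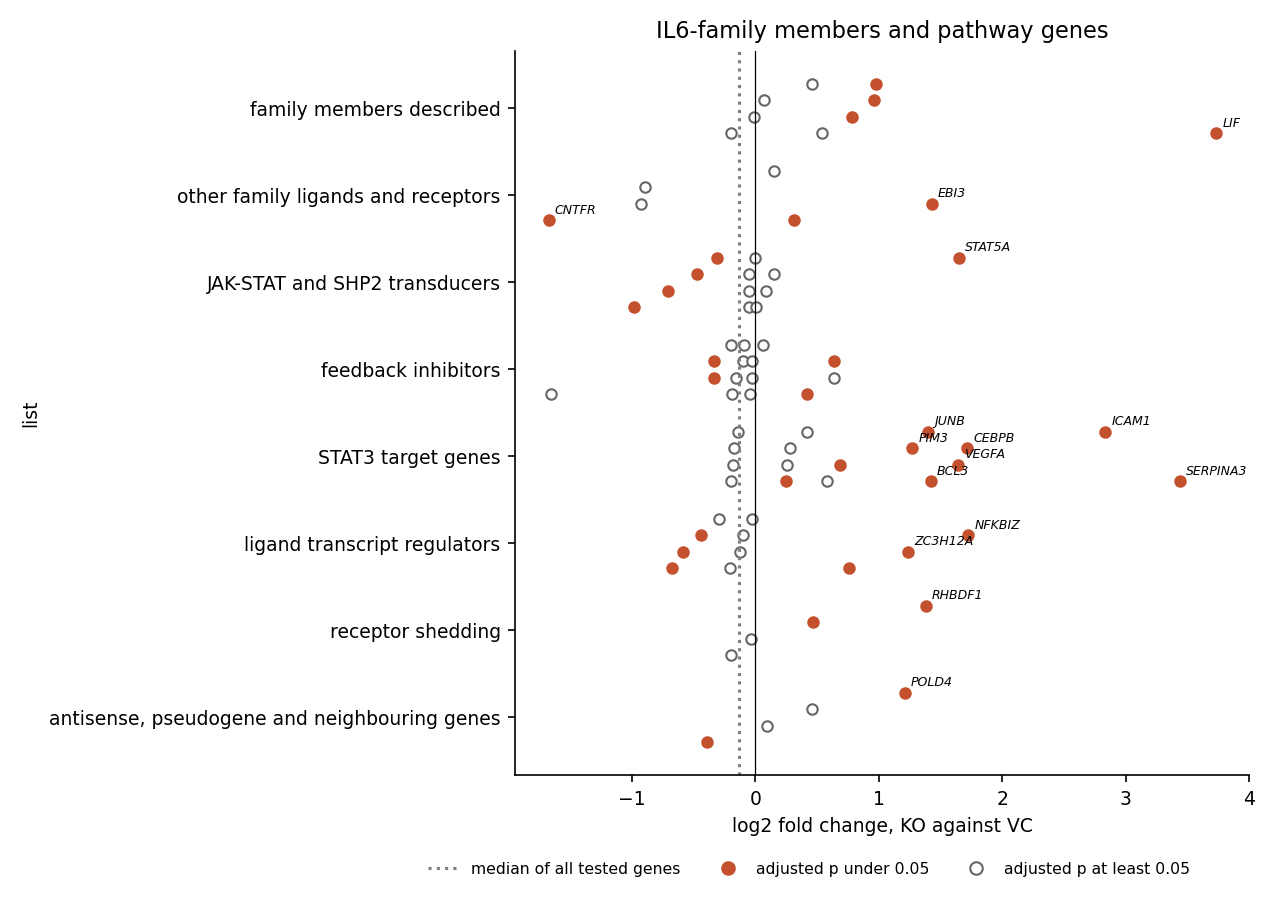
Log2 fold change (KO minus VC) of each tested gene in the family and in the pathway lists, 1 point per gene, filled where the adjusted p is under 0.05, with a dotted line at the median of all genes (-0.13). STAT3 target genes have a median of 0.58 with 9 of 17 higher, and the transducers a median of -0.05 with 1 higher and 4 lower.

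Of 11 regulators of inflammatory cytokine transcripts, 3 were higher and 3 lower, beside 13.1% higher and 19.8% lower over all genes. Their median was -0.12, beside -0.13 over all genes. NFKBIZ, the NF-kB cofactor needed for IL6 induction, had log2 signals of 0.45, 0.35 and 0.47 in VC cells and 2.20, 2.46 and 1.79 in KO cells. The log2 fold change was 1.73 (SE 0.18, adjusted p 0.00847). ZC3H12A, the ribonuclease Regnase-1 that cleaves IL6 mRNA, had 1.23 (SE 0.17, adjusted p 0.0112). NFKBIZ, needed for IL6 induction, and ZC3H12A, which cleaves IL6 mRNA, were thus both higher while the IL6 signal was low in both groups. ZFP36L1, which binds AU-rich elements and promotes decay, had 0.76 (adjusted p 0.0196), with an adjusted p of 0.0642 without VC replicate 1, while its relative ZFP36L2 had -0.68 (adjusted p 0.0276), with 0.088 without VC replicate 3. NFKBIZ and ZC3H12A passed in all 6 fits that left out a library. The whole list counted 2 without VC replicate 1, 2 or 3 or KO replicate 3. With those libraries left out in turn, 1403, 2450, 1223 and 2018 genes passed over all genes, in place of 6354.

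For shedding of receptors from the cell surface, 2 of 4 genes were higher and none was lower, beside 13.1% higher and 19.8% lower over all genes. Their median was 0.21, beside -0.13 over all genes. RHBDF1, which encodes iRhom1, a partner that ADAM17 needs for its maturation, had log2 signals of 1.58, 1.23 and 1.62 in VC cells and 2.53, 3.04 and 3.01 in KO cells. The groups did not overlap (log2 fold change 1.38, SE 0.19, adjusted p 0.0111). ADAM17, the protease that sheds IL6R, differed by 0.46 on the log2 scale (adjusted p 0.0312), with an adjusted p of 0.0969 without VC replicate 3. The count was 1 without VC replicate 1, 2 or 3 or KO replicate 3. With those libraries left out in turn, 1403, 2450, 1223 and 2018 genes passed over all genes, in place of 6354.

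A further list holds genes that overlap or copy the members, which can share reads with them, and POLD4, which lies 7.2 kb from CLCF1. Of 10 such genes, 4 could be tested, and 1 was higher and 1, LIFR-AS1, was lower, beside 13.1% higher and 19.8% lower over all genes. Their median was 0.28, beside -0.13 over all genes. LIF-AS1, which is antisense to LIF, had no value in the VC libraries and values of -3.18, -3.97 and -5.52 in the KO libraries. This antisense signal was below that of LIF in each KO library, and reads of LIF and LIF-AS1 cannot be told apart here without knowing the strand setting. IL6R-AS1 had values in VC replicate 3 (-6.66) and in the KO libraries (-5.09, -5.08 and -6.64). The gene copies IL6STP1 and CTF2P had no value, and IL6-AS1 and LIF-AS2 are not listed under these symbols. POLD4, a DNA polymerase subunit gene next to CLCF1, differed by 1.21 on the log2 scale (adjusted p 0.0151) with an adjusted p of 0.0566 without VC replicate 3, whereas RAD9A, which overlaps CLCF1, had 0.09 (adjusted p 0.388) and GALT, which overlaps IL11RA, 0.46 (adjusted p 0.137). No gene of this list passed without VC replicate 1, 2 or 3 or KO replicate 3, and 1 passed without KO replicate 2. With those libraries left out in turn, 1403, 2450, 1223, 2018 and 4393 genes passed over all genes, in place of 6354.

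The genes whose pattern was most like that of LIF were found by the Euclidean distance of gene-centred log2 signals over the 6 libraries, among 17697 other genes. They were LINC02806 (distance 0.21, log2 fold change 3.71), CTH, the gene of cystathionine gamma-lyase (0.31 and 3.59), and DDIT4, a stress-induced inhibitor of mTORC1 (0.41 and 3.42). DDIT4 had log2 signals of 4.08, 3.79 and 4.06 in VC cells and 7.0, 7.91 and 7.29 in KO cells. In these genes, as in LIF, KO replicate 2 was the highest library. For IL6ST they were PPFIBP1, which encodes a liprin (distance 0.07, log2 fold change 0.96), the transcription factor gene ETS1 (0.08 and 0.97) and the integrin gene ITGA2 (0.08 and 0.94). The distance follows from the size of the difference and the order of the libraries.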

How the data were processed

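RNA was taken by the authors from 3 VC and 3 CNTNAP4 KO samples of 143B cells. The labels name TRIzol and a stranded mRNA kit. Total RNA sequencing (Illumina NextSeq), CLC Genomics software and Partek Genomics Suite are named in the methods, and the submitters' processing notes name CASAVA, STAR, Partek and GRCh38.p13. The deposited values are log2 signals per gene symbol, and the sorted values are nearly identical between libraries, as after quantile normalization. Annotation, software versions, the strand setting of counting and the linear unit are not given in the sources used here, so depth and counting error are unknown.

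KO was compared with VC on the signals as deposited, using limma 3.58.1 in R 4.3.3 (empirical Bayes moderation, no trend, no covariates). Testing a gene required 2 or more values per group, and its two-sided p was adjusted (Benjamini-Hochberg) over all 19306 genes tested. With 3 against 3 libraries an exact permutation test cannot go below 0.1, so none was used. The family members and the pathway lists were chosen with earlier results of these data known. The genes named are all members, the 3 genes of each list with the largest absolute log2 fold change among those that passed, genes that overlap or copy a member, and STAT3, JAK1, JAK2, SOCS3, OSM and CNTNAP4. PTPN11, GRB2, SHC1, ZFP36L2, RICTOR, single markers and the untested list genes were named outside this rule, after their values were seen. The fit was tested on simulated data before use. Not every gene of the lists is reported here.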

Additional observations from a re-analysis of the deposited data

How the results depend on the processing

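LIF and IL6ST kept their direction and their side of the threshold in all 17 alternatives that gave them a value. IL11 had an adjusted p of 0.0592 and OSMR of 0.0502 with a replicate block, and IL11 also lost its call without VC replicate 3. Same-numbered deviations from the group means correlated at 0.023, 0.0051 and -0.0074, and the highest value, 0.031, was that of VC replicate 2 with KO replicate 3. These values near 0 show no pairing by replicate number. Whether the samples were prepared as pairs is not known. The cause of the changes below was not tested.

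With the replicate block 1533 genes passed over all genes in place of 6354, with 2 members, and 1, 0, 5, 1, 0 and 0 genes of the transducers, feedback inhibitors, STAT3 targets, transcript regulators, shedding genes and neighbouring genes. The library weights gave KO replicate 3 a weight of 86.5 beside 0.132 and 0.163 for KO replicates 1 and 2, so the KO group of that fit is in effect 1 library and its calls are not read as support. With these weights 13936 genes passed over all genes, with 6 other family genes, 9 feedback inhibitors, 16 STAT3 targets and 4 shedding genes. With at least a 2-fold change required, 1840 passed over all genes, with 1 member, 1 transducer, 0 feedback inhibitors, 2 transcript regulators, 1 shedding gene and 1 neighbouring gene. In the upper 50% of mean signal, 1 of 2 other family genes, 3 of 10 transducers and 1 of 3 neighbouring genes passed. That fit tested fewer genes, and 5702 of 9653 passed over all genes. It also passed 4 of 5 members, and LIF was not in it. Without variance moderation, 4432 genes passed over all genes, with 2 transducers, 3 transcript regulators, 1 shedding gene and 1 neighbouring gene. A further quantile normalization, or trend with robust estimation, left 1 neighbouring gene each, where 6393 and 7923 genes passed over all genes.

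With each library left out in turn, 1223 (without VC replicate 3) to 8669 (without KO replicate 1) genes passed over all genes, 3 to 4 members, 1 to 3 other family genes, 1 to 5 transducers, 0 to 5 feedback inhibitors, 6 to 9 STAT3 targets, 2 to 7 transcript regulators, 1 to 3 shedding genes and 0 to 2 neighbouring genes. In those fits the log2 fold change of IL6 ranged from -0.25 to 1.15, of IL6R from -0.016 to 0.17 and of IL11RA from -0.085 to 0.066. The sign of IL6 also turned with library weights (-1.21), and that of IL11RA after centring on the median of the tested genes (0.078) and a further quantile normalization (0.096). With library weights IL6R (0.22, adjusted p 0.00997) and IL11RA (-0.17, adjusted p 0.0238) passed, with the same limit.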
